A study of Arabidopsis thaliana with 6 samples.

Results

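The loci of the chloroplast genome were followed across 3 genotypes of Arabidopsis thaliana. The members are all loci that the deposited table places on chromosome C of TAIR10, whose gene identifiers all begin with ATCG, and there are 130 of them among 32594 loci in all. They comprise 85 protein-coding, 37 transfer RNA and 8 ribosomal RNA loci. Levels are the authors' FPKM, in which the fragments of a locus are scaled to transcript length and to library size. The median ratio of a library's values to the geometric means over all libraries ran only from 1.00 to 1.01. The deposited values thus already shared nearly the same median.

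The series compared seedlings at 14 days, grown on MS plates in long days at a constant temperature without any treatment, with 2 libraries for each of 3 genotypes. Col-0 served as the wild type. In apc8-1 the mutated gene is APC8, which belongs to the anaphase promoting complex, a ubiquitin ligase of the cell cycle. In nrpe1-12 it is NRPE1, whose product is the main subunit of RNA polymerase V and acts in RNA-directed DNA methylation in the nucleus. No source used here gives the kind of lesion in either allele, nor whether the duplicates came from separate cultures, so the spread behind the p-values may be technical. Whole seedlings were used, so each value is a sum over root and shoot cells, and fewer cells of a type cannot be told apart from less RNA per cell. Total RNA had only its ribosomal RNA removed, with no selection for poly(A) tails. The 2 nrpe1-12 columns share a name and are called library a and library b.

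The chloroplast genome encodes core subunits of the photosynthetic complexes, part of the organelle's own ribosome and the core of a bacterial-type RNA polymerase. Most of its genes are transcribed in polycistronic units and are then cut, spliced and edited by proteins imported from the cytosol. A phage-type polymerase and sigma factors, all encoded in the nucleus, share the work of transcription, so the level of each plastid RNA depends on proteins made outside the organelle. Nuclear genes provide the remaining subunits of the same complexes.

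Not every member could be measured. Of the 130 loci, 60 were listed at 0 FPKM in all 6 libraries, among them all 37 transfer RNA loci. All 14 single-copy coding loci of at most 150 bases were listed at 0, the longest of them 135 bases, whereas the shortest that was measured, rpl32, has 159 bases. In the inverted repeat, a stretch of which the chloroplast genome carries a pair of near-identical copies, 36 loci have a partner copy. Of these, 22 were at 0 throughout and no protein-coding one exceeded 2.32 FPKM, and no source used here says how the authors assigned fragments that match both copies. The zeros therefore cannot be read as absence of transcript. Of the 57 longer single-copy coding loci, 54 had at least 1 FPKM in at least 2 libraries, and the results rest on these 54.

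The remaining 3 longer loci include psbA and rbcL. The gene psbA (ATCG00020), which encodes the D1 reaction centre protein of photosystem II, was listed at 0 in all 6 libraries. The gene rbcL (ATCG00490), which encodes the large subunit of Rubisco, was listed at 45404.5 FPKM in Col-0 replicate 2 and at 0 in the other 5 libraries, and it was left out of all sums. The third is the short copy of ycf1 (ATCG01000) at the edge of the repeat, which stayed below the filter. A further 3 loci merge neighbouring genes, psbD with psbC, atpE with atpB and rps3 with rpl22, so their values cannot be split between these genes.

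**Figure D1:**
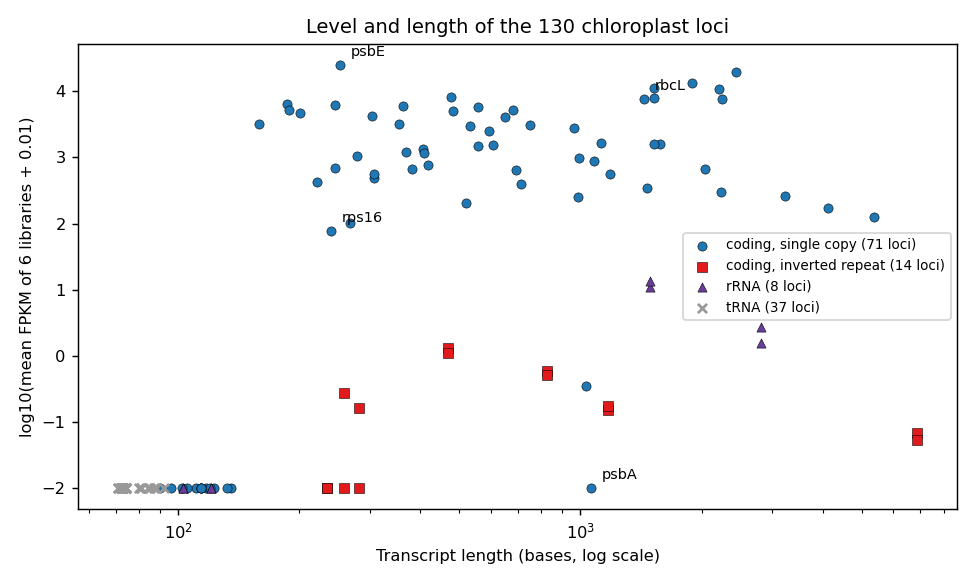
Mean FPKM over the 6 libraries (log10 scale, 0.01 added) of each of the 130 chloroplast loci against its transcript length in bases (log scale), with symbols for the kind of locus. Loci of at most 150 bases lie at the floor, the repeat loci lie far below the single-copy coding loci, and psbA lies at the floor despite its length.

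Among the 54 measured loci the mean level ran from 78.0 FPKM for rps16 to 24860 FPKM for psbE, with a median of 1555 FPKM. The lowest value in any library was 42.8 FPKM, so none of the 54 passed the filter through 1 genotype alone. By the step between low values, 1 FPKM stood for an estimated 13.6 to 18.9 fragments per kilobase in the 6 libraries. In that fit, lengths were shortened by 170 to 230 bases, depending on the library. By that estimate the 10 unspliced single-gene loci over 1000 bases held at least 5243 fragments in each library, so counting error is slight for these loci. Levels of loci near or below the subtracted length are less certain. Such loci include psbE (252 bases), rps16 (240), psbH (222), rpl33 (201), psbZ (189), psbK (186) and rpl32 (159). The ratio of the higher to the lower library of a genotype had a median of 1.05 for Col-0, of 1.13 for apc8-1 and of 1.05 for nrpe1-12. It exceeded 1.5 only in apc8-1, at cemA, psbK and rps18.

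Most measured chloroplast genes had higher levels in both mutants than in Col-0. In apc8-1, 47 of the 54 single-copy coding loci were called higher and 0 lower, with a median log2 fold change of 0.52, or 1.44-fold. In nrpe1-12, 48 were called higher and 0 lower, with a median of 0.48, or 1.39-fold. Over all 17802 tested loci of the table the medians were 0.01 and -0.01, and 14.1% were called higher and 16.1% lower in apc8-1, against 13.5% and 12.8% in nrpe1-12. Since the deposited libraries already shared nearly the same median, medians near 0 over all loci are not a separate result. Calls are those of limma on log2(FPKM + 1), fitted to all 6 libraries, at a Benjamini-Hochberg adjusted p below 0.05 over all tested loci. Both comparisons use the same Col-0 libraries, so their similarity is not independent evidence.

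The libraries themselves were well separated at most loci. Both apc8-1 libraries lay above both Col-0 libraries at 52 of 54 loci, an arrangement found at 33.2% of all tested loci, and the exceptions were cemA and rpl32. Both nrpe1-12 libraries lay above both Col-0 libraries at 54 of 54 loci, against 31.2% of all tested loci. Long and short loci had similar changes. The medians were 0.52 in apc8-1 and 0.48 in nrpe1-12 for the 31 loci over 500 bases, and 0.54 and 0.46 for the 23 shorter ones.

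These counts depend on which libraries and loci enter the fit. Of the 47 loci called in apc8-1, 35 were called in each of 6 fits that left out 1 library, and of the 48 called in nrpe1-12, 27 were. Without Col-0 replicate 1 the loci called in nrpe1-12 numbered 31. Without the filter on low values, which brings loci at or near 0 into the fit and lowers its prior degrees of freedom from 4.93 to 0.65, 10 loci were called in apc8-1 and 6 in nrpe1-12, all of them higher.

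**Figure D2:**
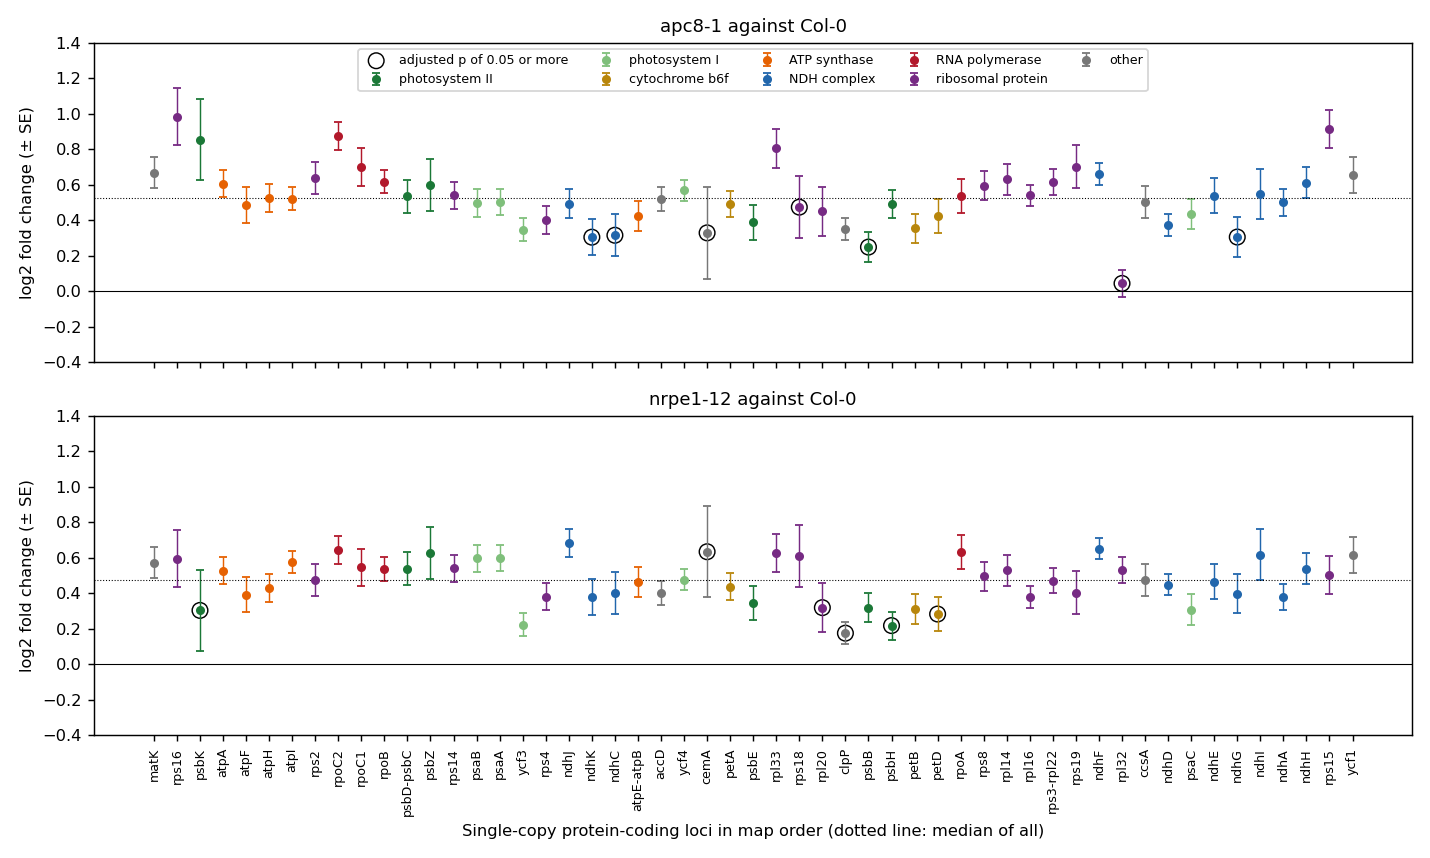
Log2 fold change with its standard error (limma, 2 libraries a genotype) of 53 of the 54 single-copy coding loci in map order, for apc8-1 (top) and nrpe1-12 (bottom) against Col-0, coloured by role, with a dotted line at the median of all 54 and rings around loci that did not pass the test. All 53 points lie above 0 in both panels with the FPKM as deposited, from 0.04 at rpl32 to 0.98 at rps16 in apc8-1 and from 0.17 at clpP to 0.68 at ndhJ in nrpe1-12. Rescaled to an equal chloroplast sum, 16 and 21 of them lie below 0, and rescaled to loci outside the organelles rpl32 does in apc8-1.

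As a fraction of all FPKM in a library, without rbcL, chloroplast loci had a mean share of 24.2% in Col-0, which compares with 29.3% in apc8-1 and with 28.8% in nrpe1-12. Loci listed at 0, such as psbA and the transfer RNA loci, add nothing to this share. It therefore stands for the measured loci rather than for the whole chloroplast genome. The differences from Col-0 were 5.04 and 4.60 percentage points. Each had p = 0.33 in a two-sided exact permutation test, the smallest p that 2 libraries against 2 can give. With rbcL in the sum, the differences shrank to 2.57 points (exact p = 0.667) and 2.13 points (exact p = 1). The share of mitochondrial loci did not rise in the same way, but it is taken of a total that includes the chloroplast loci. Summed FPKM of mitochondrial loci was 11219 and 12680 in Col-0, against 13722 and 12544 in apc8-1 and against 11528 and 12063 in nrpe1-12. Mitochondrial loci took 1.75 and 1.95% of the FPKM in Col-0, against 1.88 and 1.66% in apc8-1 and against 1.55 and 1.62% in nrpe1-12. Of 67 tested mitochondrial loci, 9 were called higher and 2 lower in apc8-1, and 13 higher and 0 lower in nrpe1-12. The shares called higher were 13.4% and 19.4%, beside 14.1% and 13.5% of all tested loci. Of all tested loci, 16.1% and 12.8% were called lower. The medians of the mitochondrial loci were 0.16 and 0.17, beside 0.01 and -0.01 over all tested loci.

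**Figure D3:**
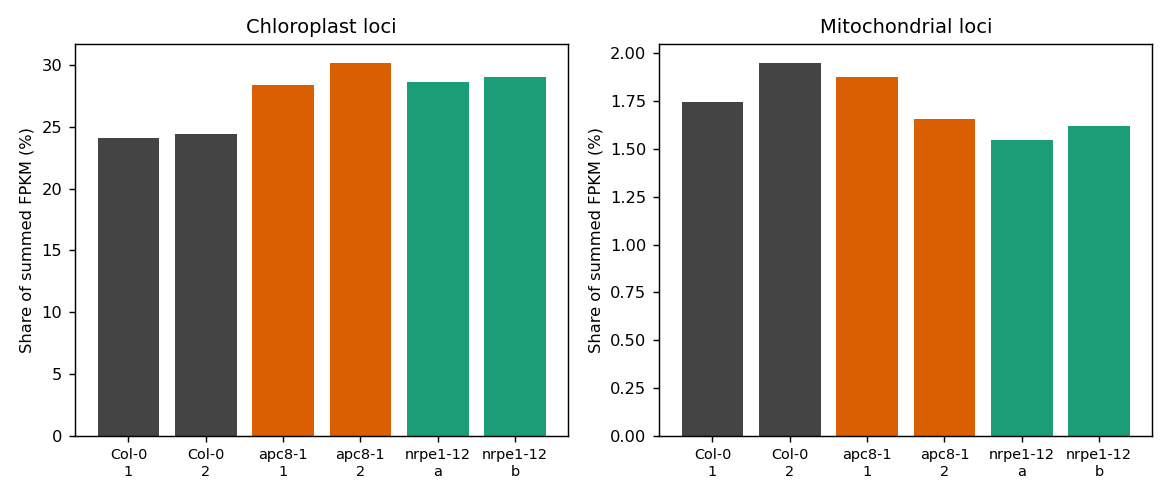
Share of summed FPKM (%) taken by chloroplast loci without rbcL (left) and by mitochondrial loci (right), 1 bar per library, with different vertical scales. The 4 mutant bars stand above both Col-0 bars on the left, whereas on the right the genotypes overlap for apc8-1 and the nrpe1-12 bars are the lowest.

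Most marker genes of root and green tissue moved with these groups. Summed over 8 root markers, such as the nitrate transporter gene NRT2.1 and the root hair gene EXPA7, the level was 18.9 and 20.7 FPKM in Col-0, against 1.15 and 1.47 in apc8-1 and against 5.22 and 7.04 in nrpe1-12. NRT2.1 alone made up 9.61 and 10.3 FPKM of the Col-0 sums. All 4 root markers that were tested fell in both mutants, with medians of -1.66 and -1.17. Of these, EXPA18, CASP1 and PRP3 reached 1 FPKM only in the Col-0 libraries and so passed the filter through Col-0 alone. Their entry into the test required a high Col-0 level, so their falls are not independent support. On the log2(FPKM + 1) scale, NRT2.1 fell most in apc8-1 (log2 fold change -3.17, adjusted p = 1.22e-05) and least in nrpe1-12 (-1.04, adjusted p = 0.00312). In nrpe1-12, PRP3, a root hair cell wall protein gene, fell most on that scale (-1.75, adjusted p = 3.81e-04). Mean FPKM there went from 4.37 in Col-0 to 0.604 for PRP3, and from 1.61 to 0.0846 for EXPA18, a larger fall in proportion. EXPA7 was listed at 0 in both apc8-1 libraries and in nrpe1-12 library a. IRT1 was too low to be tested. Its Col-0 libraries showed 0.0995 and 0 FPKM, each apc8-1 library showed 0, and the nrpe1-12 libraries stood higher at 0.234 and 0.425 FPKM. Other zeros were those of LRX1 in apc8-1 replicate 1, EXPA18 in apc8-1 replicate 2 and COBL9 in nrpe1-12 library a. Summed over 5 green tissue markers, the level ran from 15982 to 16116 FPKM in Col-0, from 20963 to 21991 in apc8-1 and from 23679 to 24929 in nrpe1-12, and all 5 rose in both mutants. RBCS1A alone made up 10092 and 9870 FPKM of the Col-0 sums. Among the 5 green markers RCA, which activates Rubisco, rose by 0.61 (adjusted p = 5.77e-04) and by 0.99 (adjusted p = 7.12e-05). Over all tested loci, 14.1% were called higher and 16.1% lower in apc8-1, against 13.5% and 12.8% in nrpe1-12. The part of tissue makeup in the chloroplast result was not tested. Both kinds of marker were detected in Col-0, whose label is whole seedling.

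Photosystem II, the complex that oxidises water, contributed 6 measured loci of 14. In apc8-1, 5 of the 6 rose, with a median of 0.51. In nrpe1-12, 4 of 6 rose, with a median of 0.33 that turned to -0.12 when the chloroplast sum was equalised between libraries. The highest level of any measured locus belonged to psbE (ATCG00580, positions 64071 to 64322 on the minus strand), which encodes a subunit of the cytochrome bound to the reaction centre. Being only 252 bases long, psbE is uncertain in level beside longer loci. It had 20192 and 21478 FPKM in Col-0, against 26072 and 28480 in apc8-1 and against 26340 and 26598 in nrpe1-12. All mutant libraries lay above both Col-0 libraries, and the log2 fold changes were 0.39 (SE 0.10, adjusted p = 0.0184) and 0.35 (SE 0.10, adjusted p = 0.0328). These psbE calls were lost without either Col-0 library, at adjusted p of 0.0848 to 0.163 in apc8-1 and of 0.126 to 0.231 in nrpe1-12. The psbE call in apc8-1 was also lost without apc8-1 replicate 2 (adjusted p = 0.0524), and that in nrpe1-12 without either of its own libraries (adjusted p = 0.124 and 0.135).

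The gene psbB (ATCG00680), which encodes a core antenna protein that binds chlorophyll, changed less than most. Its levels were 9974 and 9772 FPKM in Col-0, against 11299 and 12189 in apc8-1 and against 12130 and 12506 in nrpe1-12. Both mutants lay above Col-0 without overlap while overlapping each other, yet the change of 0.25 in apc8-1 missed the threshold (SE 0.08, adjusted p = 0.0539), whereas 0.32 in nrpe1-12 passed it (adjusted p = 0.0241). Without apc8-1 replicate 1 psbB passed in apc8-1 (adjusted p = 0.0398), and it failed in nrpe1-12 without any 1 of the 4 libraries compared (adjusted p = 0.0844 to 0.162). The merged locus of psbD and psbC, which encode a reaction centre and an antenna protein, rose by 0.54 in both mutants (adjusted p = 0.00353 and 0.00408). Without Col-0 replicate 1 psbD-psbC missed the threshold in both (adjusted p = 0.0523 and 0.0587).

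Among the small subunits, psbK had 4158 and 5153 FPKM in Col-0, against 6383 and 10974 in apc8-1 and against 6138 and 5313 in nrpe1-12. The high apc8-1 level of psbK rested on replicate 2: the log2 fold change was 0.85 (SE 0.23, adjusted p = 0.0241) with it and 0.46 (adjusted p = 0.0533) without it, and leaving out Col-0 replicate 1 also ended the call (adjusted p = 0.138). The change of psbK in nrpe1-12 was 0.30 and missed the threshold (adjusted p = 0.378). The subunit gene psbZ rose by 0.60 in apc8-1 (adjusted p = 0.0165) and by 0.63 in nrpe1-12 (adjusted p = 0.0154). Its 2 calls were lost without either Col-0 library (adjusted p = 0.0526 to 0.0997), without apc8-1 replicate 2 in apc8-1 (adjusted p = 0.0697) and without library b in nrpe1-12 (adjusted p = 0.0952).

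Photosystem I, which passes electrons on to ferredoxin, was counted with its assembly factors ycf3 and ycf4. All 5 measured loci of 7 rose in both mutants, with medians of 0.50 and 0.48. The gene psaB (ATCG00340), for a reaction centre subunit, had the highest level of the group. It measured 8329 and 8392 FPKM in Col-0, against 11841 and 11770 in apc8-1 and against 12796 and 12479 in nrpe1-12. The apc8-1 libraries lay between the other genotypes without overlap, and psaB rose by 0.50 (SE 0.08, adjusted p = 0.00204) and by 0.60 (SE 0.08, adjusted p = 9.84e-04). Its partner psaA, which precedes it in transcription, rose by 0.50 (adjusted p = 0.00154) and 0.60 (adjusted p = 7.86e-04). The assembly factor ycf4 rose by 0.57 in apc8-1 (adjusted p = 3.06e-04), the largest of the group there, and by 0.48 in nrpe1-12 (adjusted p = 8.27e-04). The smallest rise of the group in nrpe1-12 was that of ycf3, at 0.22 (adjusted p = 0.0382), which was lost without any 1 of the 4 libraries compared (adjusted p = 0.123 to 0.187).

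The cytochrome b6f complex, which links the photosystems, had 3 measured loci of 6. All 3 rose in apc8-1, with a median of 0.42 that turned to -0.05 at an equal chloroplast sum. In nrpe1-12, petA and petB rose, with a median over all 3 of 0.31 that turned to -0.14. The gene petD, for a core subunit, had the highest level, with 4170 and 4399 FPKM in Col-0, against 5348 and 6179 in apc8-1 and against 5544 and 4895 in nrpe1-12. It changed by 0.42 in apc8-1 (SE 0.10, adjusted p = 0.0132) and by 0.28 in nrpe1-12 (adjusted p = 0.0698). The petD call in apc8-1 was lost without replicate 2 of apc8-1 or either Col-0 library (adjusted p = 0.0522 to 0.0986), and petD passed in nrpe1-12 once either apc8-1 library was left out of the shared fit (adjusted p = 0.0365 and 0.0366). The gene petA, which encodes cytochrome f, rose by 0.49 (adjusted p = 0.00176) and by 0.44 (adjusted p = 0.00362) and lost neither call.

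All 5 ATP synthase loci rose in both mutants, with medians of 0.52 and 0.46. The merged locus of atpE and atpB, for the epsilon and beta subunits of the enzyme's catalytic head, had the highest level, with 10900 and 10905 FPKM in Col-0, against 14060 and 15203 in apc8-1 and against 14908 and 15170 in nrpe1-12. It rose by 0.42 (adjusted p = 0.00677) and by 0.46 (adjusted p = 0.00508), and without either Col-0 library the atpE-atpB calls were lost in both (adjusted p = 0.0536 to 0.0676). The largest rise in apc8-1 was that of atpA, for the alpha subunit, with 5959 and 6083 FPKM in Col-0 against 9014 and 9313 (0.61, SE 0.08, adjusted p = 7.15e-04). In nrpe1-12 atpI, for a subunit of the membrane part, led with 2302 and 2353 FPKM in Col-0 against 3441 and 3498 (0.58, SE 0.06, adjusted p = 4.38e-04).

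The NDH complex, which carries electrons around photosystem I, had 10 measured loci of 12. In apc8-1, 7 rose and ndhK, ndhC and ndhG, at 0.31, 0.32 and 0.31, missed the threshold (adjusted p = 0.0554, 0.0806 and 0.0713). In nrpe1-12 all 10 rose, and the medians were 0.50 and 0.46. The gene ndhJ had the highest level of the group and, in nrpe1-12, the largest rise of all chloroplast loci. Its levels were 6365 and 5926 FPKM in Col-0, against 8343 and 8956 in apc8-1 and against 9873 and 9834 in nrpe1-12. The 3 genotypes did not overlap, and ndhJ rose by 0.49 in apc8-1 (SE 0.08, adjusted p = 0.00275) and by 0.68 in nrpe1-12 (SE 0.08, adjusted p = 6.58e-04), while the difference between the mutants of -0.19 did not pass (adjusted p = 0.157). The gene ndhF (ATCG01010), in the small single-copy region, had 209 and 227 FPKM in Col-0, against 345 and 343 in apc8-1 and against 346 and 338 in nrpe1-12. Its rises of 0.66 (adjusted p = 1.55e-04) and 0.65 (adjusted p = 2.01e-04) held in all 6 fits that left out 1 library and also without the filter on low values. The gene ndhI rose by 0.62 in nrpe1-12 (adjusted p = 0.0141), a call lost without Col-0 replicate 1 or either nrpe1-12 library (adjusted p = 0.0515 to 0.0833).

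All 4 genes of the plastid-encoded RNA polymerase, the enzyme that transcribes most photosynthesis genes, rose in both mutants, with medians of 0.66 and 0.59. The gene rpoC2 (ATCG00170, positions 15938 to 20068 on the minus strand), which encodes the second part of the split beta-prime subunit, had 115 and 121 FPKM in Col-0, against 202 and 234 in apc8-1 and against 179 and 191 in nrpe1-12. The 3 genotypes did not overlap. It rose 1.85-fold in apc8-1 (log2 fold change 0.88, SE 0.08, adjusted p = 1.57e-04) and 1.57-fold in nrpe1-12 (0.64, SE 0.08, adjusted p = 8.04e-04), and the difference between the mutants of 0.23 did not pass (adjusted p = 0.0842). The gene rpoC1, for the first part of that subunit, had 480 and 481 FPKM in Col-0, against 696 and 875 in apc8-1 and against 666 and 739 in nrpe1-12. It rose by 0.70 (adjusted p = 0.00179) and by 0.54 (adjusted p = 0.00662). The beta subunit gene rpoB had 194 and 203 FPKM in Col-0, against 297 and 313 in apc8-1 and against 275 and 302 in nrpe1-12, and it rose by 0.62 (adjusted p = 3.37e-04) and 0.54 (adjusted p = 7.67e-04). The alpha subunit gene rpoA, which stands apart from the others at the end of a ribosomal protein unit, had the highest level of the group. It measured 690 and 753 FPKM in Col-0, against 1157 and 949 in apc8-1 and against 1102 and 1137 in nrpe1-12, and rose by 0.54 (adjusted p = 0.004) and 0.63 (adjusted p = 0.00217). No polymerase call was lost when a library was left out.

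Ribosomal protein genes formed the largest group, with 15 single-copy loci measured of 25 loci that include the repeat copies. In apc8-1, 13 of 15 rose, with a median of 0.62, and in nrpe1-12, 14 of 15 rose, with a median of 0.50. The largest rise of all chloroplast loci in apc8-1 was that of rps16 (ATCG00050), for a protein of the small subunit. It had 62.0 and 42.8 FPKM in Col-0, against 106 and 100 in apc8-1 and against 70.8 and 86.6 in nrpe1-12. The 3 genotypes did not overlap, and rps16 rose 1.97-fold in apc8-1 (0.98, SE 0.16, adjusted p = 0.00267). Its rise of 0.60 in nrpe1-12 (adjusted p = 0.0284) failed when Col-0 replicate 2 (0.33, adjusted p = 0.122) or nrpe1-12 library b (0.45, adjusted p = 0.156) was left out. The gene rps15 (ATCG01120) had 77.5 and 64.9 FPKM in Col-0, against 124 and 146 in apc8-1 and against 106 and 95.7 in nrpe1-12. Again the 3 genotypes did not overlap, and rps15 rose by 0.91 (SE 0.11, adjusted p = 5.40e-04) and by 0.50 (adjusted p = 0.0102). Its nrpe1-12 call was lost without Col-0 replicate 2 or nrpe1-12 library a (adjusted p = 0.0719 and 0.0692).

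The highest level among them was that of rpl33, for a protein of the large subunit, with 3248 and 3221 FPKM in Col-0, against 5023 and 6357 in apc8-1 and against 5014 and 4962 in nrpe1-12. With only 201 bases, rpl33 is uncertain in level. It rose by 0.80 (adjusted p = 0.00104) and by 0.62 (adjusted p = 0.00402). The gene rps19 rose by 0.70 (adjusted p = 0.00348) and by 0.40 (adjusted p = 0.0422). The rps19 call in nrpe1-12 was lost without either Col-0 library or nrpe1-12 library b (adjusted p = 0.138 to 0.214). Directly downstream of rpl33, rps18 had 346 and 397 FPKM in Col-0, against 644 and 413 in apc8-1 and against 573 and 558 in nrpe1-12. The apc8-1 libraries disagreed, and the change of rps18 there was 0.47 (adjusted p = 0.0774) with both, 0.15 without replicate 1 and 0.79 (adjusted p = 0.00107) without replicate 2. In nrpe1-12 rps18 rose by 0.61 (adjusted p = 0.0369), a call lost without any 1 of the 4 libraries compared (adjusted p = 0.0742 to 0.174).

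At rpl32 and rps15 the difference between the mutants was itself called. The gene rpl32 (ATCG01020, positions 113449 to 113607 on the plus strand), for a protein of the large subunit, had 2913 and 2599 FPKM in Col-0, against 2856 and 2821 in apc8-1 and against 4001 and 3950 in nrpe1-12. The apc8-1 libraries lay within the range of Col-0, and both nrpe1-12 libraries lay above the other 4. At 159 bases, rpl32 is the shortest measured locus. It is shorter than the 170 to 230 bases subtracted in the depth estimate, so its levels are uncertain. Its log2 fold change of 0.04 in apc8-1 did not pass (SE 0.07, adjusted p = 0.702), whereas it rose by 0.53 in nrpe1-12 (SE 0.07, adjusted p = 0.00154). In apc8-1 its sign turned to -0.04 without Col-0 replicate 2 and also with libraries rescaled to loci outside the organelles. The difference between the mutants at rpl32 was -0.49 (SE 0.07, adjusted p = 0.00368), in a comparison in which 7.26% of all tested loci were called higher and 11.4% lower. It was called in all 6 fits that left out 1 library, and it was lost when low loci were not filtered out (adjusted p = 0.207).

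**Figure D4:**
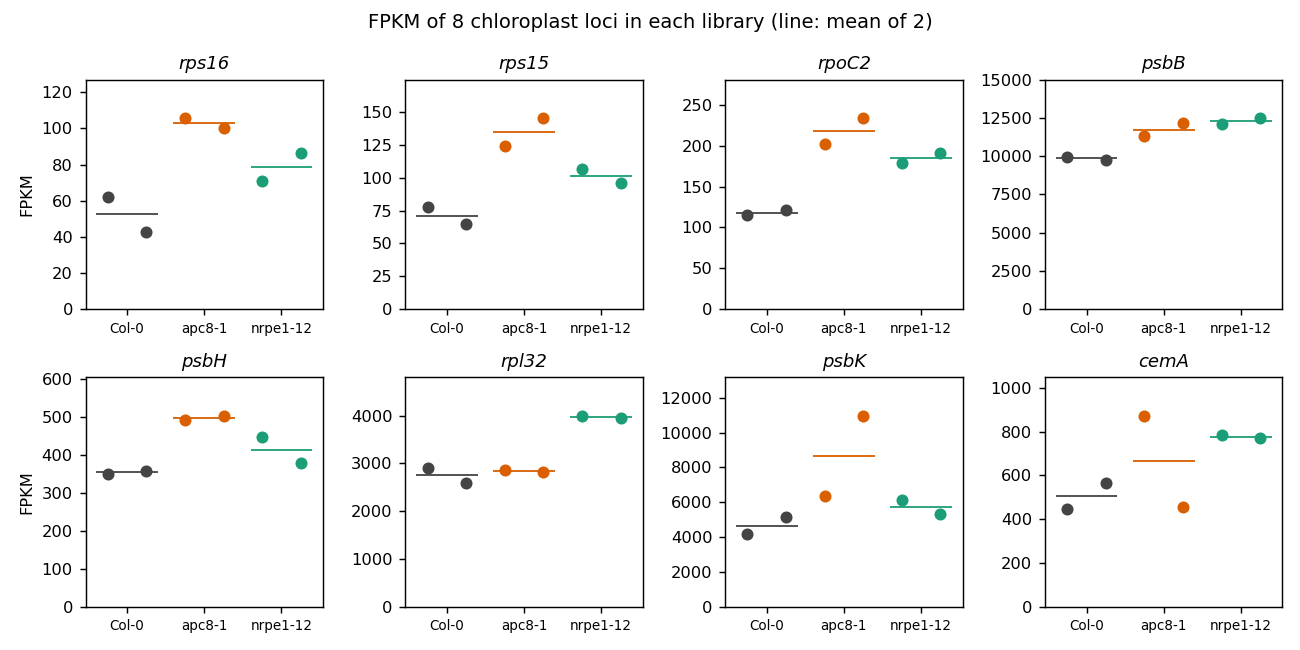
FPKM in each library of 8 chloroplast loci, with points for the 2 libraries of a genotype and a line at their mean. The mutants differ most clearly at rpl32, the shortest measured locus (159 bases), where apc8-1 overlaps Col-0. The apc8-1 points lie far apart at psbK and cemA.

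The other protein-coding genes serve varied functions, and 6 of 11 loci were measured. In apc8-1, 5 of 6 rose, with a median of 0.51, and in nrpe1-12, 4 of 6 rose, with a median of 0.52. The highest level was that of clpP, which encodes a protease subunit, with 2240 and 2222 FPKM in Col-0, against 2789 and 2910 in apc8-1 and against 2479 and 2559 in nrpe1-12. It rose by 0.35 in apc8-1 (adjusted p = 0.0042), and its change of 0.17 in nrpe1-12 was the smallest of the 54 loci there (adjusted p = 0.0798). The gene matK, for a splicing factor encoded inside an intron, rose by 0.67 (adjusted p = 9.85e-04) and by 0.57 (adjusted p = 0.00242). The long gene ycf1, for a component of the protein import machinery, had 85.8 and 99.2 FPKM in Col-0, against 157 and 135 in apc8-1 and against 133 and 151 in nrpe1-12, and it rose by 0.65 (adjusted p = 0.00211) and 0.61 (adjusted p = 0.00331). For cemA, an envelope membrane protein gene, the apc8-1 libraries had 873 and 454 FPKM, the second within the 445 to 565 of Col-0, and the nrpe1-12 libraries 786 and 769. Its changes of 0.33 and 0.63 did not pass (adjusted p = 0.379 and 0.111), and the first turned to -0.14 without apc8-1 replicate 1.

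Ribosomal RNA had been removed before sequencing, and the residue differed between libraries. The copies of the 16S gene had 6.19 and 20.6 FPKM (ATCG00920) and 36.9 and 14.0 FPKM (ATCG01210) in Col-0. Both copies were at 0 in apc8-1 replicate 1, with 3.63 and 8.27 FPKM in replicate 2, and at 19.9 and 18.4 FPKM in nrpe1-12 library a, with 15.6 and 2.32 FPKM in library b. The first copy, rrn16S ATCG00920, was called lower in apc8-1 against Col-0 (-2.54, SE 0.69, adjusted p = 0.0269), the only chloroplast locus called lower there. It was no longer called without apc8-1 replicate 1 (-1.43, adjusted p = 0.0985) or Col-0 replicate 2 (-1.74, adjusted p = 0.148). The second copy did not pass (-2.97, adjusted p = 0.0743). The copies of the 23S gene were above 0 only in apc8-1 replicate 2, at 1.94 and 2.55 FPKM, and in nrpe1-12 library b, at 7.47 and 13.8 FPKM. Because the copies are near-identical and the RNA was depleted, these values are uncertain. A repeat copy of rps7 (ATCG01240), with 0.433 and 0.587 FPKM in Col-0 against 1.02 and 2.32 in apc8-1, passed the filter only through the mutants and was called higher there (0.78, adjusted p = 0.0417). The rps7 call was lost in 5 of the 6 fits that left out 1 library (adjusted p = 0.0595 to 0.203).

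Between the mutants, the 54 coding loci differed little. In apc8-1 against nrpe1-12 the median was 0.08, 2 loci (psbH and rps15) were called higher and rpl32 was called lower. The apc8-1 libraries lay above both nrpe1-12 libraries at 18 of the 54 loci and below both at 6, arrangements found at 28.0% and 29.5% of all tested loci. The gene psbH, for a small subunit of photosystem II, had 349 and 358 FPKM in Col-0, against 491 and 503 in apc8-1 and against 446 and 379 in nrpe1-12, and its difference of 0.27 lay close to the threshold (SE 0.08, adjusted p = 0.0485). It passed in 1 of the 6 fits that left out 1 library (adjusted p = 0.0844 to 0.224 in the other 5). For rps15 the difference was 0.41 (SE 0.11, adjusted p = 0.0319), and it was lost without apc8-1 replicate 2 or either nrpe1-12 library (adjusted p = 0.145, 0.0607 and 0.17).

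When all libraries were rescaled to the same summed FPKM of single-gene coding chloroplast loci, the composition of the chloroplast transcripts could be compared apart from their total. Few coding loci then differed from Col-0, and 5 were higher in apc8-1. Among these, rps16 (0.52, adjusted p = 0.0276), rps15 (0.45, adjusted p = 0.00708), rpoC2 (0.41, adjusted p = 0.00184) and rpl33 (0.33, adjusted p = 0.0257) encode ribosomal proteins or a polymerase subunit, and rpl32 was lower in proportion (-0.43, adjusted p = 0.00914). Both 16S copies were also lower, at -2.92 and -3.38 (adjusted p = 0.00393 and 0.017). Mean levels were low for rps16 (78.0 FPKM), rps15 (102) and rpoC2 (174), but not for rpl33 (4637), whose level is uncertain at 201 bases. Over the 54 loci, the apc8-1 change in FPKM as deposited tended to be larger at lower mean levels (Spearman rho -0.41). Function and level were thus not separated. In nrpe1-12, rpoC2 was higher in proportion (0.20, adjusted p = 0.0448) and clpP and ycf3 were lower (-0.27 and -0.22, adjusted p = 0.0281 and 0.0286). Between the mutants, rps15 was higher in apc8-1 (0.39, adjusted p = 0.0431) and rpl32 and rrn16S ATCG00920 were lower (-0.51 and -3.08, adjusted p = 0.0142 and 0.0112), beside 4.88% of all tested loci called higher and 10.4% lower. On this scale 2.35% of all tested loci were called higher and 56.9% lower in apc8-1, and 3.82% and 56.9% in nrpe1-12, since most of them lie outside the chloroplast, and the median of all tested loci moved to -0.40 and -0.40. Leaving out single libraries was not combined with this scale. All 4 polymerase genes stayed above 0 in both mutants, with medians of 0.19 and 0.14. So did 38 of the 54 coding loci in apc8-1 and 33 in nrpe1-12, with medians of 0.05 and 0.03. Of the 4 polymerase genes only rpoC2 was called on this scale. Since rpoB, rpoC1 and rpoC2 share a transcription unit, they are not separate observations.

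As shares of the chloroplast sum, photosystem II loci took 34.3 and 35.4% in Col-0, against 33.8 and 35.7% in apc8-1 and against 33.7 and 33.8% in nrpe1-12, so apc8-1 spanned the range of Col-0 and both nrpe1-12 libraries lay below it. Polymerase loci took 0.958 and 0.982% in Col-0, against 1.13 and 1.04% in apc8-1 and against 1.04 and 1.1% in nrpe1-12, so the mutant libraries lay above both Col-0 libraries. Ribosomal protein loci took 12.5 and 12.4% in Col-0, against 13.03 and 13.01% in apc8-1 and against 12.7 and 12.9% in nrpe1-12, again without overlap. Cytochrome b6f loci moved the other way: Col-0 gave 6.42 and 6.40%, apc8-1 gave 6.30 and 6.02%, and nrpe1-12 gave 6.12 and 5.62%. In apc8-1 alone, NDH loci lay below both Col-0 libraries and ATP synthase loci above them. In nrpe1-12 alone, photosystem I loci lay above both and the group of varied functions below. A two-sided exact permutation test of 2 libraries against 2 cannot give p below 0.33, so these gaps in share carry little weight.

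Genes that are transcribed together differed widely in level. Over all 6 libraries, in the unit of psbB, psbT, psbH, petB and petD, psbB averaged 11312 FPKM and psbH 421 FPKM, a ratio of 26.9. This ratio is uncertain, since psbH has only 222 bases. In the depth estimate, lengths were shortened by 170 to 230 bases. The unit from rps2 to atpA spanned a ratio of 20.0 and the unit from ndhH to ndhD one of 14.5, between 2957 FPKM for ndhG and 203 FPKM for ndhI. By contrast, the unit of ndhC, ndhK and ndhJ spanned a ratio of 1.57. Whether counting used the strand is not stated in the sources, so antisense RNA at these loci cannot be separated. The log2 fold changes of psaA, psaB and rps14 were 0.50 to 0.54 in apc8-1 and 0.54 to 0.60 in nrpe1-12. Those of rpoB, rpoC1 and rpoC2 were 0.62 to 0.88 and 0.54 to 0.64. Those of the psbB unit were 0.25 to 0.49 and 0.22 to 0.32.

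**Figure D5:**
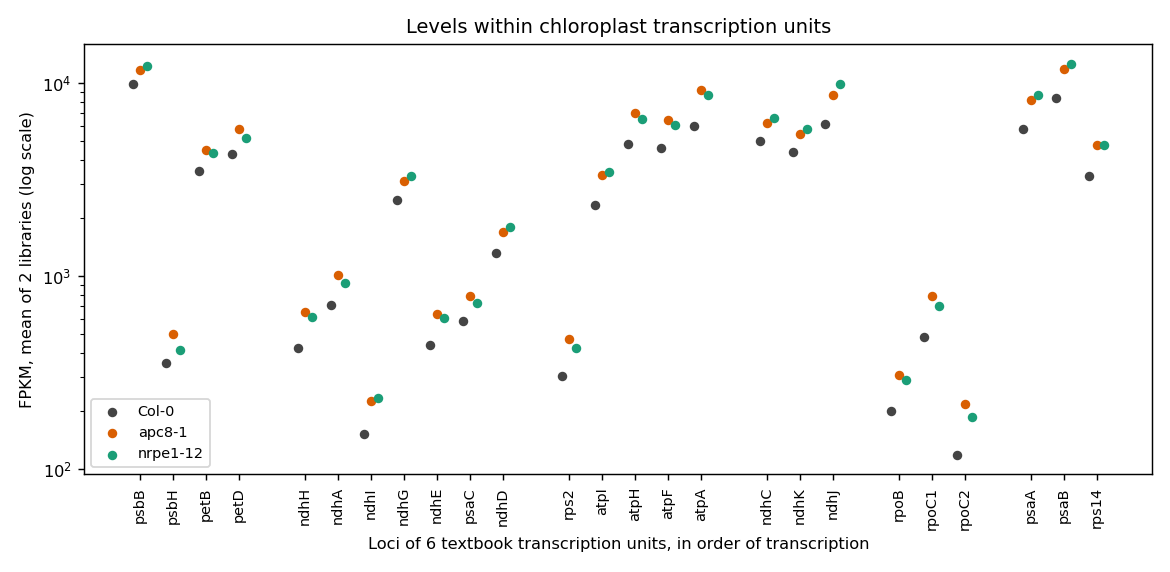
Mean FPKM of 2 libraries per genotype (log scale) for the loci of 6 textbook chloroplast transcription units, in order of transcription. Averaged over all 6 libraries, levels within a unit differ by up to 26.9-fold, in the psbB unit. Its lowest locus psbH has only 222 bases and is uncertain in level. With the FPKM as deposited both mutant points lie above the Col-0 point at every locus shown.

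Nuclear genes of chloroplast transcription and of the same complexes were examined beside the chloroplast loci, from lists chosen with earlier results of these data known. Among 19 tested genes of 20 listed for chloroplast transcription, 11 rose and 1 fell in apc8-1, with a median of 0.41, and 6 rose and 0 fell in nrpe1-12, with a median of 0.15. Of all tested loci, 14.1% rose and 16.1% fell in apc8-1, and 13.5% and 12.8% in nrpe1-12. SIG6, a sigma factor that directs the plastid polymerase in young seedlings, rose by 0.54 in apc8-1 (adjusted p = 0.00114) and by 0.43 in nrpe1-12 (adjusted p = 0.0039). SIG5, a sigma factor known to respond to stress and blue light, had 26.5 and 25.1 FPKM in Col-0, against 29.5 and 30.3 in apc8-1 and against 44.0 and 47.3 in nrpe1-12. The nrpe1-12 libraries stood apart, and SIG5 rose there by 0.80 (adjusted p = 1.69e-04), while 0.21 in apc8-1 did not pass (adjusted p = 0.0592). SIG4 rose in both mutants, by 0.49 in apc8-1 (adjusted p = 0.00336) and by 0.47 in nrpe1-12 (adjusted p = 0.00442). SIG1 also rose in both, by 0.50 and 0.69 (adjusted p = 0.00601 and 0.00153), and so did SIG3, by 0.46 and 0.58 (adjusted p = 0.00427 and 0.00174). PTAC14, a protein bound to the plastid polymerase, rose by 0.51 in apc8-1 (adjusted p = 0.00234), and its change of 0.25 in nrpe1-12 did not pass (adjusted p = 0.0548). RPOTmp, the phage-type polymerase targeted to both organelles, was the gene that fell in apc8-1, by 0.60 (adjusted p = 0.0288), and the plastid phage-type polymerase RPOTp did not pass in either mutant (0.07 and 0.10, adjusted p = 0.642 and 0.501).

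Among 7 genes of chloroplast RNA processing, 5 rose in apc8-1 and 3 in nrpe1-12, with 0 lower in either and medians of 0.37 and 0.28. For this list and the next, the shares of all tested loci called higher were 14.1% and 13.5%. CSP41A, an RNA-binding protein that stabilises plastid transcripts, rose by 0.58 and 0.60 (adjusted p = 5.57e-04 and 5.61e-04), and its partner CSP41B by 0.37 and 0.63 (adjusted p = 0.0056 and 4.69e-04). Of 21 tested nuclear subunits of the photosynthetic complexes and Rubisco, from 23 listed, 20 rose in apc8-1 and 18 in nrpe1-12, with 0 lower in either and medians of 0.39 and 0.43. RBCS1A and PSAD1 of this list are also among the green tissue markers. PSBO2, which shields the water-oxidising site, rose by 0.56 and 0.83 (adjusted p = 5.34e-04 and 1.01e-04). Genes of the small subunit of Rubisco rose as well, RBCS2B by 0.74 and 0.34 (adjusted p = 4.55e-04 and 0.0204) and RBCS3B by 0.61 and 0.81 (adjusted p = 6.19e-04 and 1.96e-04), although the split of fragments among these near-identical paralogs is uncertain.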

How the data were processed

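Per the labels' protocols, total RNA was extracted with Trizol and sequenced after removal of ribosomal RNA. Per the submitters' processing notes, TopHat2 2.0.13, Cufflinks 2.2.1, Cuffnorm 2.2.1 and the TAIR10 genome were used, and the authors deposited FPKM for each locus and library. Strand counting and fragment totals are not given in the sources used here. The FPKM worth of 1 fragment was read off the low values of unspliced loci over 1500 bases, each shortened by a fitted 170 to 230 bases. A whole number of fragments, to within 0.15, explained 98.8 to 99.5% of these values. The smallest fitting step was kept, since multiples of it fit equally well.

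Of the 130 loci, 114 were named by a RefSeq symbol, 9 by position and 7 by the table's own symbol. Testing used limma 3.58.1 (R 4.3.3) on log2(FPKM + 1) and was limited to the 17802 loci reaching 1 FPKM in 2 or more libraries, with an intensity trend and 3 residual degrees of freedom. Fold changes are therefore on the log2(FPKM + 1) scale, which understates changes of low loci. The procedure was tested on simulated data. Members and lists were chosen with earlier results of these data known. Named were rbcL, psbA, all rpo genes, the highest member of each role group and up to 3 with the largest called rises or falls. To these came the 8 largest called rises and falls overall in each mutant (5 each between mutants) and up to 3 genes per list with the smallest p. The result of 1 locus named by this rule is not reported here. Others, such as psbB, cemA and ycf3, were added after their values had been seen. Alternatives were the pseudocount, filters, 3 scalings, no trend, only the genotypes compared, the replicate block and leaving out each library.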

Additional observations from a re-analysis of the deposited data

Results flagged for a closer look

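For 4 chloroplast loci the difference between the mutants was itself past the threshold in limma. The log2 difference, apc8-1 minus nrpe1-12, was 0.27 for psbH, 0.41 for rps15, -0.49 for rpl32 and -3.11 for the 16S copy rrn16S ATCG00920, with adjusted p of 0.0485, 0.0319, 0.00368 and 0.0179. The difference for rrn16S rests on RNA left after depletion, which varied between libraries, and on how fragments were assigned to near-identical copies. It was lost without apc8-1 replicate 1 or either nrpe1-12 library. No sample could be tested as standing apart from its group, since each group has 2 libraries.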

How the results depend on the processing

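The main counts of called chloroplast loci of any kind were 49 in apc8-1, 48 in nrpe1-12 and 4 between the mutants. Without a filter they were 10, 6 and 0, and 5 chloroplast loci then had an unadjusted limma p under 0.05 between the mutants. Rescaled within the chloroplast they were 8, 3 and 3, and without an intensity trend the count between the mutants was 2. Leaving out 1 library gave 37 to 51, 31 to 50 and 1 to 10, the last pair without nrpe1-12 library b and without apc8-1 replicate 1. The other alternatives kept each count within 1.5 times. Median-of-ratios scaling was among them, but its factors ran only from 1.00 to 1.01, so it tested little.

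Col-0 and apc8-1 share replicate numbers, which nothing shows to pair samples (r = -0.06 between their replicate differences over 17802 loci). With the replicate number as a block 47 loci were called in apc8-1. A lone library left in a genotype was assumed to vary like the others.

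Rescaling within the chloroplast reversed 16 loci in apc8-1: ycf3 -0.13, rps4 -0.071, ndhK -0.17, ndhC -0.16, atpE-atpB -0.0495, cemA -0.14, psbE -0.085, rpl20 -0.022, clpP -0.12, psbB -0.22, petB -0.12, petD -0.048, rpl32 -0.43, ndhD -0.099, psaC -0.037 and ndhG -0.17. In nrpe1-12 it reversed 21: psbK -0.15, atpF -0.056, atpH -0.0198, ycf3 -0.22, rps4 -0.068, ndhK -0.069, ndhC -0.048, accD -0.045, petA -0.011, psbE -0.10, rpl20 -0.13, clpP -0.27, psbB -0.13, psbH -0.23, petB -0.14, petD -0.17, rpl16 -0.069, rps19 -0.044, psaC -0.14, ndhG -0.0503 and ndhA -0.0698. By construction this scale sets the chloroplast total equal. In apc8-1, leaving out 1 library gave -0.14 (without apc8-1 replicate 1) to 0.80 for cemA and -0.037 (without Col-0 replicate 2) to 0.13 for rpl32, which became -0.045 when rescaled to loci outside the organelles. That scaling moved the median of all loci to -0.07 and -0.11 and left the coding chloroplast medians at 0.43 and 0.36. With rbcL the share differences were 2.57 and 2.13 points. Leaving out 1 library, the share differed from Col-0 by 4.14 to 5.95 points in apc8-1 and 4.41 to 4.79 in nrpe1-12, and between the mutants by -0.455 to 1.35. Fragments behind spliced or short loci were not estimated, so depth limits are unknown there.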
